A study of Mus musculus with 2 samples.

Results

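The genes described are 10 members of fibroblast growth factor (FGF) signalling, taken by symbol from the 52550 gene identifiers of the deposited tables. They are the ligands Fgf8, Fgf9 and Fgf10, the receptors Fgfr1, Fgfr2 and Fgfr3, and the response genes Spry1, Spry2, Dusp6 and Etv5. Each was found and each had UMIs (unique molecular identifiers, 1 per captured transcript). The data are 2 Drop-seq libraries, in which single cells are caught in droplets with barcoded beads, made from E10.0 embryos of wild-type CD1 mice. The microdissected tissue was the posterior second heart field (pSHF) together with the heart tube, and tissue of about 80 embryos was pooled for each library. There was no treated or mutant group, so classes of cells are compared with one another inside each library, and a class value in a library is an average over many embryos.

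FGF ligands are secreted proteins that bind receptor tyrosine kinases together with heparan sulfate chains and switch on the Ras and ERK cascade. Cells that receive the signal switch on its own inhibitors, among them the Sprouty proteins and the ERK phosphatase DUSP6, and the ETS transcription factor ETV5. In the heart-forming region, FGF8 and FGF10 made by pharyngeal mesoderm and FGF8 made by pharyngeal epithelium are known for keeping second heart field (SHF) progenitors dividing and for building the outflow tract.

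After filtering, 3882 cells of replicate 1 and 4717 cells of replicate 2 remained, with 11240488 and 12776544 UMIs and medians of 1380.5 and 1500.0 UMIs per cell. The libraries shared 82 cell barcodes, none of them among the cells kept. Clustering left out every FGF pathway gene, so no member helped to define a class. Of 16 clusters, 13 were named from marker genes and formed 11 classes with 2932 and 3516 cells, where the suffix "-like" marks a name that rests on markers alone. The naming has limits that touch the results. The surface ectoderm-like class is mainly 1 cluster of 592 cells led by Foxi2, Vgll2, Ctxn3 and Sostdc1, in which 5 surface ectoderm markers were tied with 5 foregut endoderm markers. In that cluster Tfap2a stood at 111 and 102 CPM (UMIs of the gene per 1000000 UMIs) and Shh at 1.73 and 8.95 CPM in replicates 1 and 2, while the foregut endoderm-like cluster had Tfap2a at 0 and 3.94 CPM and Shh at 347 and 441 CPM. The SHF progenitor-like class carried 7 SHF markers and 3 foregut mesenchyme markers, the neural tube-like class also carried 7 neuron markers, and the hepatoblast-like class also carried 6 foregut endoderm markers. Clusters that met no name held 24.5% and 25.5% of the cells.

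Every one of the 10 members differed between the 11 classes (edgeR's quasi-likelihood F test on UMIs summed per class and library, adjusted p under 0.05). Of all 5702 genes tested, 72.8% did so too, so that count says little about the members, and what follows is where each member was high. For single classes, each was tested against the mean of the log levels of the other 10. That gave 46 calls among 110 combinations of member and class, 37 higher and 9 lower. In 39 of the 46 the class also lay on the same side of the pooled level of the other classes in both libraries. In the other 7, the pooled values did not bear out the direction in both libraries. They are Fgf8 in cardiomyocyte-like and in pharyngeal arch or limb mesenchyme-like cells, Fgf9, Fgf10 and Fgfr1 in SHF progenitor-like cells, Fgfr2 in cardiomyocyte-like cells and Spry2 in foregut endoderm-like cells. The Fgf8 calls among them lay below the pooled level in each library, and the rest lay above it in replicate 1 alone. The calls use a mean of logs, which classes with few or no UMIs pull down. Whether that or a difference between the libraries lies behind the 7 was not tested. Ratios to the pooled level of the other classes are therefore given in place of fitted folds. Drop-seq counts transcript ends, and no level of 1 gene is compared here with that of another gene.

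Fgf8 (chr19:45736798-45742915, minus strand, GRCm38), the ligand of the pharyngeal epithelium and the anterior heart field, was concentrated in 1 epithelium. Surface ectoderm-like cells held 93.4 CPM in replicate 1 and 158.0 CPM in replicate 2, from 59 and 231 UMIs. Both values lay far above every other class, the next being pharyngeal arch or limb mesenchyme-like cells with 7.0 and 26.2 CPM. The surface ectoderm-like class held 39.6 and 16.2 times the pooled level of the other classes (2.36 and 9.76 CPM; edgeR adjusted p = 6.4e-30), and it held 63.4% and 68.3% of all Fgf8 UMIs of the kept cells. No Fgf8 UMI was found in erythroid-like, hepatoblast-like and neural crest or glia-like cells, whose 4342240 UMIs allow a joint level of up to 0.69 CPM. Fgf8 was detected in 18.7% and 21.7% of surface ectoderm-like cells (median depths 2131 and 1985 UMIs), against 0 of 306 erythroid-like cells, taken as the class that should lack the gene, which were deeper (3464 and 6040 UMIs). That count of 0 allows up to 0.98% of cells with a UMI. At an equal depth of 1000 UMIs per cell, the surface ectoderm-like shares were 9.15% and 13.8%.

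The smaller surface ectoderm-like cluster, 62 cells led by Tac2 and Grhl3, held no Fgf8 UMI, so all Fgf8 UMIs of the class came from the Foxi2-led cells. The name of the Fgf8-rich cells was not stable. The cluster with the most Fgf8 UMIs was called surface ectoderm in 3 of 7 clusterings and foregut endoderm in 3, where Shh was its leading gene, and in 1 it met no name. Its Fgf8 level was 93.3 to 138 CPM in replicate 1 and 151 to 215 CPM in replicate 2 in the 4 clusterings where Foxi2 or Vgll2 led. In the 3 led by Shh it was 39.1 to 42.1 and 113 to 128 CPM. Those 3 clusters were larger, with 340 to 398 cells in replicate 1 and 568 to 660 in replicate 2. The Foxi2-led cluster of the clustering used held 170 and 422 cells, and its foregut endoderm-like class 229 and 239. Whether the larger clusters joined these epithelia was not tested, so their name need not be that of the Fgf8-rich cells. At resolution 0.6 and with another gene share, Foxi2 was among the leading genes beside Shh. Another convention, added after the data were seen, counts the tied cluster as foregut endoderm. Only the 62 cells of the smaller cluster then remained surface ectoderm-like, with a fitted log2 fold of Fgf8 over the other classes of -4.26. With these markers, surface ectoderm and endoderm cannot be told apart for the Fgf8-rich epithelium.

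Fgf9 (chr14:58070547-58112720, plus strand), a ligand known from epicardium and other epithelia, was low and spread over more classes. Surface ectoderm-like cells had 17.4 and 19.8 CPM in replicates 1 and 2, pharyngeal arch or limb mesenchyme-like cells 10.2 and 14.5 CPM, epicardial-like cells 6.2 and 16.5 CPM and SHF progenitor-like cells 8.8 and 8.2 CPM. In the clustering used, the surface ectoderm-like values lay above all others, and the mesenchyme-like and epicardial-like ranges overlapped. In the 5 clusterings that named pharyngeal mesoderm-like cells, Fgf9 was highest there, with means of 26.3 to 35.7 CPM. In the clustering used, the surface ectoderm-like, mesenchyme-like and epicardial-like classes were all higher than the others. Their edgeR adjusted p was 2.5e-07 in surface ectoderm-like, 7.5e-06 in mesenchyme-like and 0.0012 in epicardial-like cells. Endocardial or endothelial-like, hepatoblast-like and neural crest or glia-like cells had no Fgf9 UMI among 3326494, which allows up to 0.90 CPM. All kept cells together held only 60 and 94 Fgf9 UMIs.

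Fgf10 (chr13:118669791-118792115, plus strand), the mesodermal ligand best known for signalling to neighbouring epithelium, followed a mesenchymal pattern. Pharyngeal arch or limb mesenchyme-like cells had 30.2 and 49.2 CPM, SHF progenitor-like cells 40.4 and 11.1 CPM and epicardial-like cells 20.6 and 27.0 CPM. The SHF progenitor-like range overlapped each of the other two, the mesenchyme-like values lay above the epicardial-like ones, and all 3 classes lay above the remaining classes, of which none passed 8.3 CPM. The mesenchyme-like class held 2.37 and 7.37 times the pooled level of the other classes (12.7 and 6.67 CPM; edgeR adjusted p = 2.7e-14), and the epicardial-like class held 1.33 and 1.84 times theirs (15.5 and 14.6 CPM; adjusted p = 1.1e-05). In SHF progenitor-like cells the libraries disagreed. Replicate 1 gave 69 UMIs and 3.71 times the level of the other classes, and replicate 2 gave 15 UMIs and 0.69 times that level. Foregut endoderm-like cells had 0 and 2 Fgf10 UMIs, and hepatoblast-like cells had none among 559189 UMIs.

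Fgf8 and Fgf10 were highest in different classes. Surface ectoderm-like cells, where Fgf8 was highest, had 4.8 and 4.1 CPM of Fgf10, close to the 3.7 and 1.8 CPM of erythroid-like cells. Pharyngeal arch or limb mesenchyme-like cells held both, with 29.9% and 56.5% of all Fgf10 UMIs and 13 of 93 and 56 of 338 Fgf8 UMIs. This class made up 21.6% and 21.5% of the kept cells. Its Fgf8 level was 0.834 and 0.825 times the pooled level of the other classes, so it was not enriched for Fgf8 by that measure.

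**Figure D1:**
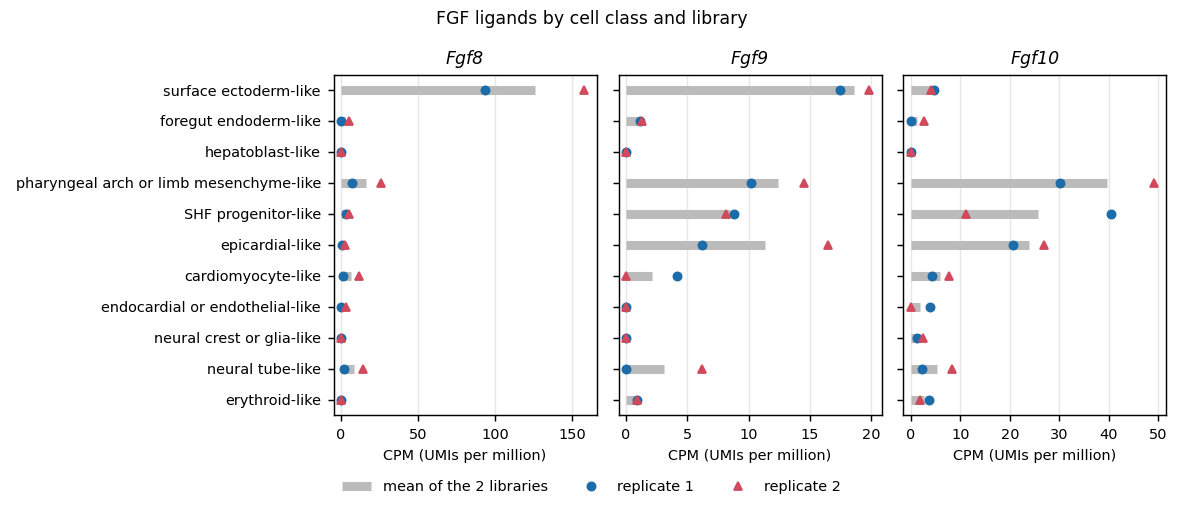
Levels of the 3 ligands in CPM (x axes, 1 scale per gene) in the 11 cell classes (y axis); circles are replicate 1, triangles replicate 2 and bars their mean. Fgf8 stands out in surface ectoderm-like cells (93.4 and 158.0 CPM), and the SHF progenitor-like points of Fgf10 lie apart (40.4 and 11.1 CPM).

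Fgfr1 (chr8:25513654-25575718, plus strand), the receptor of most mesenchyme, was the most evenly spread of the receptors. Surface ectoderm-like cells had 74.4 and 78.0 CPM and pharyngeal arch or limb mesenchyme-like cells 70.6 and 66.5 CPM in replicates 1 and 2. They were the 2 highest classes in the clustering used, and their ranges did not overlap. In the 5 clusterings that named pharyngeal mesoderm-like cells, Fgfr1 was highest there, with means of 86.2 to 110 CPM. In the clustering used, neural tube-like cells had 59.9 and 57.8 CPM and neural crest or glia-like cells 62.2 and 47.5 CPM. SHF progenitor-like cells had 66.8 and 42.2 CPM and foregut endoderm-like cells 50.4 and 53.9 CPM. The neural crest or glia-like and SHF progenitor-like ranges overlapped all the others of these 4, while the neural tube-like values lay above the foregut endoderm-like ones. The ratio to the pooled other classes was 1.50 and 1.84 in surface ectoderm-like cells (edgeR adjusted p = 1.4e-07) and 1.51 and 1.57 in mesenchyme-like cells (adjusted p = 2.7e-07). Erythroid-like cells had 3.7 and 0.9 CPM, lower than the pooled others by 15.3 and 57.5 times (adjusted p = 1.4e-09).

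Fgfr2 is the receptor whose splice forms divide between epithelium and mesenchyme, and these counts do not separate the forms. Foregut endoderm-like cells had 44.8 and 36.8 CPM, epicardial-like cells 31.0 and 47.9 CPM, surface ectoderm-like cells 34.8 and 30.8 CPM and SHF progenitor-like cells 33.4 and 29.6 CPM. Each of these ranges overlapped the next. Pharyngeal arch or limb mesenchyme-like cells lay lower at 19.4 and 20.1 CPM. All 4 leading classes were higher than the others, foregut endoderm-like cells by 2.18 and 1.78 times the pooled level (edgeR adjusted p = 1.9e-07) and epicardial-like cells by 1.42 and 2.39 times (adjusted p = 1.2e-06). No Fgfr2 UMI was found in 386 endocardial or endothelial-like cells. Their 1152839 UMIs allow up to 2.60 CPM, so against pooled levels of 24.0 and 23.3 CPM in the other classes they were lower (adjusted p = 1.2e-06). The GENCODE M21 model of Fgfr2 on chromosome 7 runs over 2960900 bases of the minus strand and overlaps 36 other genes of that strand, while the RefSeq gene is chr7:130162451-130266808. How the authors' counting treated the overlap is not given in the sources used here, so Fgfr2 counts are less certain than the others.

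Fgfr3 (chr5:33721674-33737068, plus strand), a receptor known in neural progenitors, was high in neural tube-like cells, with 41.5 and 76.4 CPM. Foregut endoderm-like cells were next with 10.1 and 23.6 CPM, and no other class passed 10.5 CPM in either library. The neural tube-like class held 10.1 and 12.4 times the pooled level of the others (4.10 and 6.17 CPM; edgeR adjusted p = 1.7e-13) and the foregut endoderm-like class 1.90 and 2.84 times (adjusted p = 5.3e-04). It was detected in 7.79% and 12.2% of neural tube-like cells (median depths 1481 and 1473 UMIs), or 5.71% and 6.90% at equal depth, against 0 of 306 erythroid-like cells. Surface ectoderm-like cells, high in Fgfr1 and Fgfr2, held 1 and 4 Fgfr3 UMIs.

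**Figure D2:**
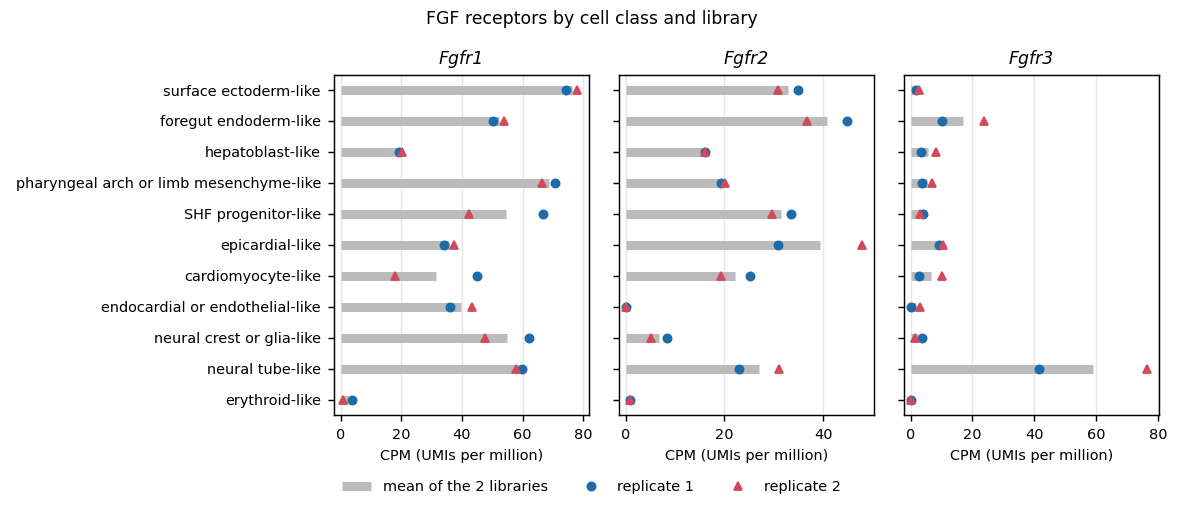
Levels of the 3 receptors in CPM (x axes, 1 scale per gene) in the 11 cell classes (y axis); circles are replicate 1, triangles replicate 2 and bars their mean. Fgfr1 is at 18.0 CPM or more in every class but erythroid-like cells (3.7 and 0.9 CPM), Fgfr2 is at 0 in endocardial or endothelial-like cells, and Fgfr3 is highest in neural tube-like cells (41.5 and 76.4 CPM).

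The response genes are commonly read as signs of active ERK signalling. Their promoters, 250 bases before and 50 after the RefSeq transcript start on GRCm38.p6, are shown because all 4 genes were higher in the same 2 classes, surface ectoderm-like and pharyngeal arch or limb mesenchyme-like, in the clustering used. In surface ectoderm-like cells the direction turned for Dusp6 in 5 alternatives and for Etv5 in 4. In mesenchyme-like cells Etv5 passed in 6 of 12 alternatives and Spry1 in 3 of 11. Capitals mark the ETS core CCGGAA or its reverse complement TTCCGG, searched on both strands.
Spry1 (chr3:37639697-37639996, plus strand): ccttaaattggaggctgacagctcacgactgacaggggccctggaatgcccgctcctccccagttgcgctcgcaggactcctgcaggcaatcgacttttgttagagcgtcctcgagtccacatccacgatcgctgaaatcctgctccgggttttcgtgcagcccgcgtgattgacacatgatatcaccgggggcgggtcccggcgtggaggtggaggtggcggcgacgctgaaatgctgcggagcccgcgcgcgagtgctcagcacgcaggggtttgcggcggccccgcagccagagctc
Spry2 (chr14:105896770-105897069, minus strand): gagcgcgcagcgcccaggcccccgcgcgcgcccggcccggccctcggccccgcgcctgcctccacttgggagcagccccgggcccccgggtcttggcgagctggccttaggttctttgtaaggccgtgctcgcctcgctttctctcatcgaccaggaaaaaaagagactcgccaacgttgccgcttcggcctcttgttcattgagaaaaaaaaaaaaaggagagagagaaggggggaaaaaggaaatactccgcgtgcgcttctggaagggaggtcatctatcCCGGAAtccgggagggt
Dusp6 (chr10:99262981-99263280, plus strand): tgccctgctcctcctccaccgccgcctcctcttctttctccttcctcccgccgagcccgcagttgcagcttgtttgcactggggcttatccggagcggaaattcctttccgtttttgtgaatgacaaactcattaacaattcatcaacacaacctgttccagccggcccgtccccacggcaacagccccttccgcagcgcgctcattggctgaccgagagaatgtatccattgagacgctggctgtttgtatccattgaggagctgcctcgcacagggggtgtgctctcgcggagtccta
Etv5 (chr16:22439521-22439820, minus strand): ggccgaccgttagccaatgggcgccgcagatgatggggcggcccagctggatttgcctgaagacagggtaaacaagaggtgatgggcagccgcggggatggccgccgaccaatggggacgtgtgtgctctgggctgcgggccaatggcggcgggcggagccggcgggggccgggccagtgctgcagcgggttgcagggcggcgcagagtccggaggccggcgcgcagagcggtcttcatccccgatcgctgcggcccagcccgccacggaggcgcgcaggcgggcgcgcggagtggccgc
Spry2 held 1 match, beginning at base 34 of the transcript when the start is counted as 1, and the windows of the other 3 held none. Among 32851 RefSeq promoters of this length 14.9% held a match. The table gave promoters for 8 of the 10 members.

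Spry1 and Spry2 encode Sprouty proteins, which block the receptor signal upstream of ERK. In the clustering used, Spry1 was at 19.0 and 41.7 CPM in surface ectoderm-like cells in replicates 1 and 2. Both values lay above every other class in either library. Pharyngeal arch or limb mesenchyme-like cells (mean 16.1 ± 3.02 CPM, SD, n = 2), epicardial-like cells (15.5 and 16.5 CPM) and foregut endoderm-like cells (12.3 and 18.4 CPM) had ranges that overlapped. The surface ectoderm-like class held 2.27 and 3.68 times the pooled level of the others (edgeR adjusted p = 1.3e-07), and the mesenchyme-like class 1.77 and 1.22 times (adjusted p = 0.026).

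Spry2 was at 34.8 and 75.9 CPM in surface ectoderm-like cells, 30.2 and 55.7 CPM in pharyngeal arch or limb mesenchyme-like cells and 23.9 and 41.1 CPM in neural crest or glia-like cells. In each library these 3 classes stood in that order, each was higher in replicate 2, and their ranges over the libraries overlapped. In the 5 clusterings that named pharyngeal mesoderm-like cells, Spry2 was highest there, with means of 90.0 to 109 CPM. In the clustering used, SHF progenitor-like cells had only 8.2 and 8.9 CPM. Surface ectoderm-like cells held 2.37 and 2.97 times the pooled level of the others (edgeR adjusted p = 1.7e-12), mesenchyme-like cells 2.37 and 2.09 times (adjusted p = 1.4e-10) and neural crest or glia-like cells 1.57 and 1.29 times (adjusted p = 4.2e-04).

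Dusp6, the cytoplasmic phosphatase that takes phosphate off ERK, was highest in endocardial or endothelial-like cells in the clustering used. In 4 other clusterings it was highest in pharyngeal mesoderm-like cells, with means of 161 to 206 CPM. Endocardial or endothelial-like cells had 129 and 174 CPM, pharyngeal arch or limb mesenchyme-like cells 99.6 and 117 CPM, surface ectoderm-like cells 76.0 and 123 CPM, neural crest or glia-like cells 82.5 and 102 CPM and cardiomyocyte-like cells 81.3 and 93.9 CPM. The endocardial or endothelial-like values lay above all others. Each of the next 4 classes overlapped its neighbour in that order, but the mesenchyme-like values lay above the cardiomyocyte-like ones. SHF progenitor-like cells had 24.0 and 30.4 CPM and neural tube-like cells 18.4 and 20.7 CPM. Against the pooled others, endocardial or endothelial-like cells were higher by 2.45 and 2.41 times (edgeR adjusted p = 7.5e-18), in cells with no Fgfr2 UMI and with Fgfr1 at 36.1 and 43.1 CPM. SHF progenitor-like cells held 0.379 and 0.354 times the pooled level (adjusted p = 3.3e-04) and neural tube-like cells 0.316 and 0.254 times (adjusted p = 4.3e-04), both lower. Dusp6 was detected in 22.3% and 28.4% of endocardial or endothelial-like cells (10.1% and 14.8% at equal depth), against 1.88% and 2.05% of erythroid-like cells (0.67% and 1.38%), with median depths of 1237 and 1963 against 3464 and 6040 UMIs. Dusp6 and the other response genes also respond to receptors outside the FGF family, which these counts do not separate.

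Etv5, the ETS factor, was highest in foregut endoderm-like cells with 52.6 and 57.8 CPM at full depth. In cells thinned to 1000 UMIs, surface ectoderm-like cells were highest instead, with 42.3 and 66.3 CPM in replicates 1 and 2. At full depth, surface ectoderm-like cells had 30.1 and 36.9 CPM and pharyngeal arch or limb mesenchyme-like cells 14.5 and 28.1 CPM. None of these 3 full-depth ranges overlapped. Foregut endoderm-like cells held 6.36 and 3.52 times the pooled level of the others (edgeR adjusted p = 1.2e-13), surface ectoderm-like cells 2.72 and 2.23 times (adjusted p = 1.8e-07) and mesenchyme-like cells 1.24 and 1.63 times (adjusted p = 2.6e-04). Epicardial-like cells, at 1.0 and 3.0 CPM, were lower (0.077 and 0.145 times; adjusted p = 0.0048). The share of foregut endoderm-like cells with an Etv5 UMI was 32 of 229 and 30 of 239, or 5.88% and 2.93% at equal depth, against 0.62% and 1.37% of erythroid-like cells (0 and 0.69% at equal depth). Median depths were 2271 and 2302 against 3464 and 6040 UMIs.

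**Figure D3:**
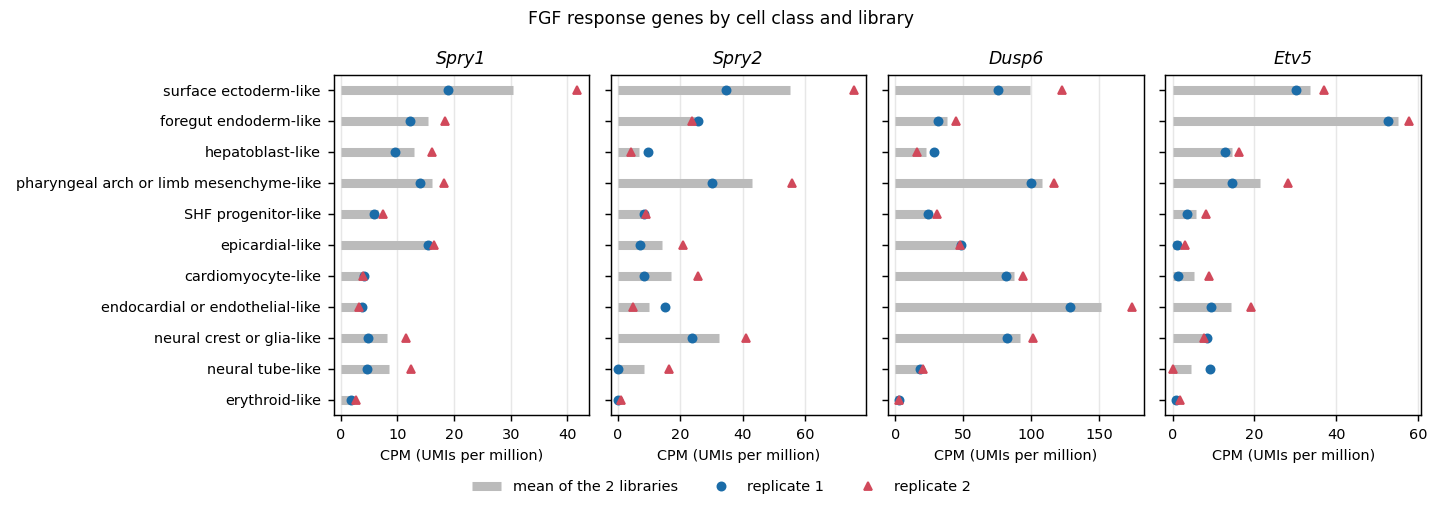
Levels of the 4 response genes in CPM (x axes, 1 scale per gene) in the 11 cell classes (y axis); circles are replicate 1, triangles replicate 2 and bars their mean. Each gene has another leading class or margin, with Dusp6 led by endocardial or endothelial-like cells (129 and 174 CPM) and Etv5 by foregut endoderm-like cells (52.6 and 57.8 CPM). SHF progenitor-like cells were called lower than the other classes for Dusp6 alone.

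Read by class, surface ectoderm-like cells were higher than the others for 8 of the 10 members, all but Fgf10 and Fgfr3, beside 13.0% of all tested genes, and lower for 0, beside 4.56%, where edgeR had 8 members at an unadjusted p under 0.05 in either direction and DESeq2 also called 0 lower. Of the 8, Fgf8, Fgf9, Dusp6 and Etv5 turned to lower fitted folds in 3 to 5 alternatives each, in which the Fgf8-rich cells carried another name or none. In 3 of them Dusp6 was called lower in the cells left under the surface ectoderm-like name (log2 folds -3.17, -3.52 and -3.18; edgeR adjusted p = 0.024, 0.0045 and 0.014). Pharyngeal arch or limb mesenchyme-like cells were called higher for 8 as well, all but Fgfr2 and Fgfr3, beside 11.1%, and lower for 0, beside 3.17%. For Fgf8 in that class the pooled ratios were 0.834 and 0.825, below 1. Foregut endoderm-like cells had 4 higher calls, Fgfr2, Fgfr3, Spry2 and Etv5, beside 14.2%. SHF progenitor-like cells had 4 higher calls, Fgf9, Fgf10, Fgfr1 and Fgfr2, beside 12.8%, and 1 lower, Dusp6, beside 4.93%. Of their 4 higher calls, the pooled ratio was above 1 in both libraries only for Fgfr2 (1.63 and 1.43). Epicardial-like cells had 3 higher calls, Fgf9, Fgf10 and Fgfr2, beside 12.8%, and 1 lower, Etv5, beside 4.23%. Neural tube-like cells had 3 higher calls, all receptors, beside 8.68%, and 1 lower, Dusp6, beside 4.96%. Of these, the Fgfr1 call was weak, with pooled ratios of 1.18 and 1.24, and it passed in only 3 of 11 alternatives.

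Neural crest or glia-like cells had 3 higher calls, Fgfr1, Spry2 and Dusp6, beside 9.91% of all tested genes, and 0 lower, beside 5.3%. Their Fgfr1 call had pooled ratios of 1.24 and 1.005 and passed in 5 of 11 alternatives. The endocardial or endothelial-like class was higher for Dusp6 alone, beside 15.8%, and lower for Fgfr2 alone, beside 8.38%. Cardiomyocyte-like cells had 3 higher calls, beside 18.9%, of which only Dusp6 lay above the pooled others in both libraries (1.49 and 1.21 times). Erythroid-like cells were lower for 5 members, Fgfr1, Fgfr3, Spry2, Dusp6 and Etv5, beside 27.8%, and higher for 0, beside 24.6%. In hepatoblast-like cells edgeR called 0 members, beside 8.28% of genes higher and 3.98% lower. There 3 members had an unadjusted p under 0.05, and DESeq2 called 0. With 169 cells and 559189 UMIs, the depth of this class limits what could be detected.

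The progenitors were set against the cardiomyocytes because the dissected tissue held both the progenitor field and the heart tube it feeds. SHF progenitor-like cells had 2 members higher, Fgf10 and Fgfr1, and 1 lower, Dusp6, than cardiomyocyte-like cells, while 12.9% of all tested genes were higher and 15.1% lower. Dusp6 averaged 27.2 ± 4.49 CPM in SHF progenitor-like and 87.6 ± 8.90 CPM in cardiomyocyte-like cells (SD, n = 2 libraries), a log2 fold of -1.78 ± 0.21 (SE; edgeR adjusted p = 1.8e-10). It was lower in both libraries, and it passed in each of 12 alternatives, with adjusted p between 3.1e-12 and 2.5e-04. Fgfr1 averaged 54.5 ± 17.4 CPM in SHF progenitor-like and 31.4 ± 19.0 CPM in cardiomyocyte-like cells (log2 fold 0.74 ± 0.26, adjusted p = 0.023), higher within each library although the ranges over libraries overlapped. Without the library block its adjusted p was 0.198. Fgf10 averaged 25.8 ± 20.7 CPM against 5.96 ± 2.48 CPM (log2 fold 2.03 ± 0.55, adjusted p = 0.0027; 0.064 without the block). This call rested on replicate 1. The fitted log2 fold was 0.37 without replicate 1 and 3.18 without replicate 2.

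The other 7 members did not pass in the comparison with cardiomyocyte-like cells. Fgf9 gave 26 UMIs against 3, a ratio of 4.23 with an exact interval of 1.30 to 21.8 for counting error (edgeR adjusted p = 0.093). Spry2 gave a log2 fold of -1.07, with an interval of -1.99 to -0.14 (adjusted p = 0.076). Fgfr2, at 33.4 and 29.6 CPM against 25.2 and 19.3 CPM, gave 0.41 with an interval of -0.23 to 1.06. For Etv5 the fold was -0.01 with an interval of -1.25 to 1.24, too wide to say that the classes were alike.

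Foregut endoderm was set against the progenitors since it lies beside them and is a known source of signals to them. Foregut endoderm-like cells were higher than SHF progenitor-like cells for 3 members, Etv5, Fgfr3 and Spry2 (8.84% of all tested genes were higher), and lower for 2, Fgf10 and Fgf9 (6.33% lower). Etv5 averaged 55.2 ± 3.67 CPM in foregut endoderm-like cells, against 5.83 ± 3.28 CPM in the progenitors (SD, n = 2), a log2 fold of 3.27 ± 0.39 (SE; edgeR adjusted p = 2.1e-10), and it passed in each of 12 alternatives. Spry2 averaged 24.7 ± 1.48 against 8.55 ± 0.49 CPM (log2 fold 1.51 ± 0.41, adjusted p = 0.0051; 0.252 without the library block). Fgfr3 averaged 16.9 ± 9.60 against 3.53 ± 0.81 CPM (log2 fold 2.09 ± 0.59, adjusted p = 0.0071; 0.051 without the block, and 0.214 with the tied cluster counted as endoderm).

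Fgf10 and Fgf9 were lower in foregut endoderm-like cells than in the progenitors. Fgf10 gave 2 UMIs in foregut endoderm-like and 84 in SHF progenitor-like cells, a ratio of 0.044 with an exact counting interval of 0.0052 to 0.164 (edgeR adjusted p = 4.7e-06), and it passed in each of 11 alternatives. The fitted log2 fold of Fgf10 was -2.02 without replicate 1 and -8.12 without replicate 2. Fgf9 gave 2 against 26 UMIs, a ratio of 0.142 with an interval of 0.016 to 0.568 (adjusted p = 0.038; 0.132 without the block), and it passed in only 2 of 11 alternatives. In 4 of the 11 its direction turned, with log2 folds of 0.34 to 2.02. Fgf8 gave 4 against 13 UMIs and did not pass (adjusted p = 0.60). The interval of its log2 fold, -2.47 to 0.82, leaves room for a difference either way. Fgfr1, at 50.4 and 53.9 CPM in foregut endoderm-like and 66.8 and 42.2 CPM in SHF progenitor-like cells, gave -0.10 with an interval of -0.54 to 0.34, and Dusp6 gave 0.47 with an interval of -0.04 to 0.97.

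**Figure D4:**
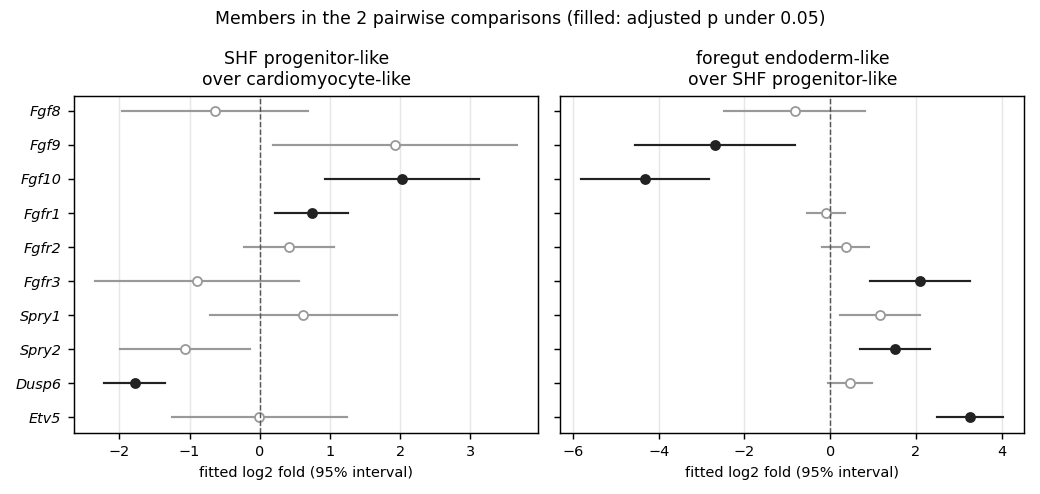
Fitted log2 folds of the 10 members (x axis) with approximate 95% intervals built from the SE. SHF progenitor-like over cardiomyocyte-like cells are on the left and foregut endoderm-like over SHF progenitor-like cells on the right. Filled points have an edgeR adjusted p under 0.05. Dusp6 lies at -1.78 on the left, and Etv5 at 3.27 and Fgf10 at -4.32 on the right.

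The pharyngeal mesoderm, the tissue in which Fgf8 and Fgf10 are best known near the heart, did not form a named class in the clustering used above. In 5 of 7 clusterings, however, a cluster of 132 to 382 cells, with Grem1 among its 4 leading genes each time, met the markers fixed for pharyngeal mesoderm. Its members are described without a test, since the cells differ from setting to setting. The 5 clusterings regroup cells of the same 2 libraries, so their values are not independent, and a range over them is not a counting error. Fgf10 was at 56.5 to 84.0 CPM there in replicate 1 and 82.4 to 97.7 CPM in replicate 2, above the 30.2 and 49.2 CPM of the mesenchyme-like class and the 40.4 and 11.1 CPM of the SHF progenitor-like class. Fgf8 was at 19.8 to 29.9 and 56.1 to 70.3 CPM, against 7.0 and 26.2 CPM in mesenchyme-like cells. Fgf9 was at 9.96 to 24.7 and 34.0 to 52.1 CPM. In replicate 1 these levels rested on 4 to 12 UMIs of Fgf8 and 3 to 8 of Fgf9. All 3 ligands were thus measured in the same cluster.

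The response genes stood high in those pharyngeal mesoderm-like cells too. Spry2 was at 64.2 to 76.9 CPM in replicate 1 and 103 to 143 CPM in replicate 2, Dusp6 at 133 to 198 and 146 to 215 CPM, Etv5 at 24.7 to 30.3 and 42.1 to 62.4 CPM, and Spry1 at 25.6 to 34.8 and 24.2 to 37.4 CPM. For each of the 4, every value in a library was above that library's value in the mesenchyme-like and in the SHF progenitor-like class. In replicate 1 the values rested on only 5 to 13 UMIs of Etv5 and 7 to 11 of Spry1, so their counting error is large. Fgfr1 was at 94.9 to 114 and 77.6 to 111 CPM, whereas Fgfr2 (3.32 to 14.8 and 10.7 to 15.6 CPM) lay below both classes. Fgfr2 had only 1 to 6 UMIs there in replicate 1, and Fgfr3 never passed 2.72 CPM. SHF progenitor-like cells, by contrast, combined Fgfr1 and Fgfr2 with Spry1 at 5.9 and 7.4, Spry2 at 8.2 and 8.9 and Etv5 at 3.5 and 8.2 CPM.

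**Figure D5:**
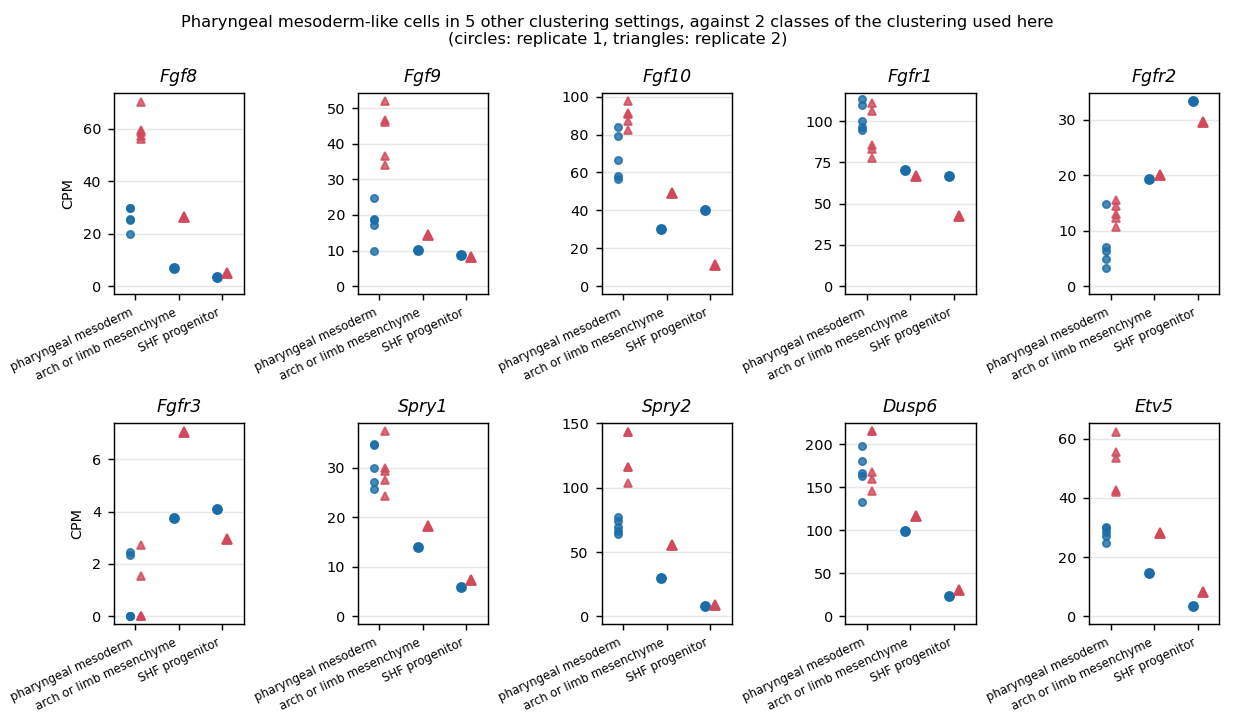
CPM (y axes, 1 scale per gene) of the 10 members in pharyngeal mesoderm-like cells, 1 point per library for each of the 5 clusterings that named them, beside the pharyngeal arch or limb mesenchyme-like and SHF progenitor-like classes; circles are replicate 1 and triangles replicate 2. Fgf10, Spry1, Spry2, Dusp6 and Etv5 lie above both classes within each library, and Fgfr2 lies below both.

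The libraries differed for several members over all kept cells. Fgf8 was at 8.27 CPM in replicate 1 and 26.5 CPM in replicate 2, Spry2 at 15.7 and 33.5 CPM, Spry1 at 9.34 and 17.0 CPM, Etv5 at 12.5 and 19.7 CPM and Dusp6 at 62.0 and 84.5 CPM. Fgf10, Fgfr1 and Fgfr2 were closer, at 16.6 and 14.6, 53.1 and 49.5, and 22.2 and 19.5 CPM. Surface ectoderm-like cells made up 4.97% of the cells in replicate 1 and 9.77% in replicate 2. Within classes, Spry2 was still higher in replicate 2 in surface ectoderm-like, mesenchyme-like, neural crest or glia-like, epicardial-like, neural tube-like and cardiomyocyte-like cells. SHF progenitor-like cells (8.2 and 8.9 CPM) and erythroid-like cells (0 and 1 UMI) differed too little to tell. Spry2 was lower in replicate 2 in endocardial or endothelial-like, hepatoblast-like (3 and 1 UMIs) and foregut endoderm-like cells (25.7 and 23.6 CPM). The libraries came from separate pools of embryos, and any other difference in how they were made cannot be told apart from that here.

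Other pathway genes came from lists of related genes. Of 19 other ligands, 16 had a UMI and 3 were abundant enough to test, and all 3 differed between classes, beside 72.8% of all tested genes. Fgf5 was highest in epicardial-like cells (19.6 and 25.5 CPM), Fgf13, a non-secreted homologue, in cardiomyocyte-like cells (28.0 and 27.0 CPM), and Fgf15 in neural tube-like cells (16.1 and 14.5 CPM). Fgf3 and Fgf4, named after their values were seen, were not tested. Surface ectoderm-like cells held 33 of 44 Fgf3 UMIs and 10 of 12 Fgf4 UMIs, so these ligands lay in the class of Fgf8.

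Of 7 other receptors and co-receptors, 5 were tested and all 5 differed, beside 72.8%. Flrt3 and Flrt2, membrane proteins that bind FGF receptors, were highest in epicardial-like cells (320 and 256, and 147 and 138 CPM), and both were lower in SHF progenitor-like than in cardiomyocyte-like cells (log2 folds -1.58 and -1.56, edgeR adjusted p = 5.9e-11 and 1.8e-07). Fgfr4 was highest in hepatoblast-like cells (22.5 and 12.1 CPM) and Flrt1 in neural crest or glia-like cells (28.7 and 11.6 CPM). Of 17 docking and transduction genes, 16 were tested and 12 differed, a share of 75.0% beside 72.8% of all genes. Map2k2 was highest in SHF progenitor-like cells (305 and 320 CPM), Map2k1 in cardiomyocyte-like cells (122 and 154 CPM), Mapk3 in endocardial or endothelial-like cells (47.4 and 99.1 CPM) and Hras in surface ectoderm-like cells (49.1 and 38.3 CPM).

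Of 19 other feedback and target genes, 15 were tested and all 15 differed, beside 72.8%. The 4 with the smallest adjusted p are the cell-cycle gene Ccnd1, the phosphatase gene Dusp9 and Myc, all highest in hepatoblast-like cells (1187 and 1139, 453 and 590, and 135 and 226 CPM), and Fos, highest in erythroid-like cells (26.9 and 79.8 CPM). Foregut endoderm-like cells had 3 of the 15 higher than SHF progenitor-like cells, Spred1, Dusp4 and Dusp9, and 3 lower, Etv1, Egr1 and Myc, beside 8.84% of all tested genes higher and 6.33% lower. SHF progenitor-like cells had 2 of the 15 higher than cardiomyocyte-like cells, Ccnd1 and Dusp9, and 3 lower, Dusp5, Etv1 and Myc, beside 12.9% higher and 15.1% lower. Etv1 and Etv5, both ETS factors of 1 subfamily, thus went opposite ways between foregut endoderm-like and SHF progenitor-like cells, with log2 folds of -3.39 and 3.27. Over the list the median log2 fold was 0.14 in that comparison, beside -0.02 over all tested genes, and -0.23 beside 0.02 for the progenitors over cardiomyocyte-like cells.

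Of 22 heparan sulfate genes, 20 were tested and all 20 differed, beside 72.8%. Gpc3 was highest in epicardial-like cells (1159 and 1657 CPM), Sdc4 in hepatoblast-like cells (144 and 149 CPM), Hs6st2, a sulfotransferase gene, in surface ectoderm-like cells (154 and 127 CPM) and Hspg2 in endocardial or endothelial-like cells (101 and 118 CPM). Foregut endoderm-like cells had 7 of the 20 higher than SHF progenitor-like cells and 0 lower, beside 8.84% and 6.33% of all tested genes. SHF progenitor-like cells had 5 higher and 4 lower than cardiomyocyte-like cells, beside 12.9% and 15.1%.

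The genes most like a member were those with the highest Pearson correlation of log2(CPM + 5) over the 11 class means, among 3491 genes, as a description. For Fgf10 they were Pdgfra (r = 0.86), a receptor of mesenchymal cells, Sema3a (0.83), a guidance cue, and Ptn (0.82), a heparin-binding growth factor. For Etv5 they were Atg14 (0.86), Amot (0.85) and the tight junction gene Cldn4 (0.84). For Dusp6 they were Ggps1 (0.91), Lima1 (0.91) and Rac1 (0.90). For Fgfr1 they were Luzp1 (0.98), Socs6 (0.97) and Dhx9 (0.97), and for Fgfr2 they were Anapc13, Rps6ka6 and Rflnb (0.93 each). For Fgf8 no gene passed 0.785, and the leading ones were the pseudogene Rpl32-ps, Galnt3 and Faim. Spry2 was led by Kctd20 (0.90) and Spry1 by Arfip2 (0.88). The class means share libraries and depth, and the 11 classes are few.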

How the data were processed

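The authors deposited whole-number UMI counts per gene and barcode from 2 Drop-seq libraries. The submitters' processing notes name Scanpy and the build mm10, and the sources used here do not give aligner, counter or strand setting. A minimum of 400 detected genes and a ceiling of 10% on mitochondrial UMIs left 4038 and 4934 cells. The threshold that Scrublet set itself marked 0 and 1 cells, under 0.5%, so the cells with the highest 5% of scores were removed (156 and 217). Marker genes and a seeded random draw of the other genes, without FGF pathway genes, were used for clustering in scanpy 1.11.5 (26096 genes, Leiden resolution 1), and the 26454 held-out genes alone were tested. A cluster was named from at least 3 markers raised 2-fold and found in 5% of its cells. Ties went to the type with more markers among the 10 leading genes.

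Counts were summed per class and library (22 sums) and tested two-sided with edgeR 4.0.16 (TMM, filterByExpr, class and library as terms, 10 residual degrees of freedom, Benjamini-Hochberg adjustment over 5702 genes). Same-library classes deviated together (r = 0.433 to 0.797), and the library is a block in the fit. With 2 libraries of pooled embryos, p-values measure the spread between these libraries and classes. Shares at equal depth use cells thinned to 1000 UMIs. Intervals of shares and count ratios are exact at 95%, and a count of 0 is bounded by 3 counts, for counting error only. Intervals of log2 folds are approximate, the fold plus and minus 2 SE, with the SE taken from the fold and its F statistic. All 10 members were named. Of each other list the 4 genes with the smallest adjusted p were named, and for members with at least 200 UMIs the 3 most like genes with a mean of at least 20 CPM. The members and lists were chosen with earlier results of these data known. Coordinates are GENCODE M21 on GRCm38, and promoter sequences are from RefSeq.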

Additional observations from a re-analysis of the deposited data

How the results depend on the processing

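The F test called all 10 members in every alternative but thinning to 1000 UMIs, which called 5. There only 5 members passed the filter on low counts, and calls of other pathway genes numbered 22 instead of 55, of class-over-others calls 11 higher instead of 37 and 1 lower instead of 9. Lower calls numbered 14 without the mitochondrial filter and 15 with doublets kept. The count of members higher in SHF progenitor-like than in cardiomyocyte-like cells (2) was 0 with DESeq2, 0 with no replicate block, 0 after thinning, and 1 with at least 800 genes per cell or another random gene share, and lower calls (1) were 2 with at least 800 genes. For foregut endoderm-like over SHF progenitor-like cells, 3 higher became 1 with no replicate block, with 800 genes or after thinning, and 5 with doublets kept, resolution 0.6, another gene share or the tied cluster counted as endoderm. The 2 lower became 0 after thinning and 1 with DESeq2, no replicate block, 800 genes, no mitochondrial filter, doublets kept, resolution 0.6 or 1.6, another gene share or the tied cluster.

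Direction turned in 24 cases, in log2 fold. In mesenchyme-like cells over others, Fgf8 gave -2.15 with 800 genes, -0.16 without the mitochondrial filter and -1.95 at resolution 1.6, and Fgf9 gave -0.76 and -0.016 under the first 2 of these. In surface ectoderm-like cells over others, at resolution 0.6, with another gene share and with the tied cluster as endoderm (an alternative chosen after seeing the data), Fgf8 gave -4.31, -4.53 and -4.26, Fgf9 -3.99, -4.11 and -3.82, Dusp6 -3.17, -3.52 and -3.18, and Etv5 -0.99, -0.89 and -0.74. With doublets kept, Dusp6 gave -0.60 and Etv5 -0.24, and at resolution 1.6 Dusp6 gave -0.34. In these settings the cluster with most Fgf8 UMIs carried another name or none. Fgf9 in foregut endoderm-like over SHF progenitor-like cells gave 0.74 with doublets kept, 0.45 at resolution 0.6, 2.02 with another gene share and 0.34 with the tied cluster. For the mesenchyme-like cases the cause was not tested. Among tested repeats of called member differences, 452 kept direction and call and 136 direction only. Of repeats without a replicate, 77 stayed within the spread and 31 did not. With 1 library left, there is no residual spread and no test. The low counts limit what could be seen, above all for Fgf9 (154 UMIs) and Fgfr3 (175 UMIs).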

Other observations

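Of the 3 clusters left without a name, the one of 478 cells led by Dlx5, Dlx6, Meox2 and Tcf15, which carried arch or limb mesenchyme and paraxial mesoderm markers, had Dusp6 at 131 and 121 CPM and Fgf10 at 11.3 and 5.0 CPM in replicates 1 and 2. Fgf8 stood there at 1.6 and 0 CPM. The cluster of 247 cells led by Kcnq1ot1 had Fgfr1 at 154 and 176 CPM, above every named class. The cluster of 1426 cells with a median of 703 UMIs per cell had Fgf10 at 23.2 and 22.6 CPM.

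Within pharyngeal arch or limb mesenchyme-like cells, the more deeply read cluster of 603 cells had Fgf10 at 34.4 and 61.0 CPM, against 22.6 and 28.4 CPM in the cluster of 1247 cells, and Spry2 at 36.9 and 71.3 CPM against 18.0 and 28.4 CPM. Their median depths were 2884 and 1010 UMIs per cell, and the part of depth in the difference was not tested.

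Barcodes with 10 to 200 UMIs, 117 and 333 in number with 8713 and 55494 UMIs in all, held 0 and 4 UMIs of Dusp6, 1 and 1 of Fgfr1, 0 and 2 of Fgf9, and 0 and 1 each of Fgfr3, Spry1 and Etv5 in replicates 1 and 2. They held none of Fgf8, Fgf10, Fgfr2 and Spry2. These totals are too small to set a level against that of a class.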
